A study of Mus musculus with 24 samples.

Results

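The immunoglobulin segment transcripts were the 146 probes whose target carries an Ensembl mouse transcript identifier from ENSMUST00000103301 to ENSMUST00000103560, a run of identifiers given to gene segments of the immunoglobulin kappa and heavy chains. They were 146 of the 56605 probes on the array that are not controls, and they covered 139 transcripts with 164 spots. The array files name each target by its identifier alone, so each transcript is given here by that identifier, and by its probe for the 7 transcripts that have 2 probes. The set was chosen with its change between ages already known. Its differences between ages are therefore given as a description, with no test. RNA was measured in the liver, the lung, the kidney and white adipose tissue (WAT) of male mice of the strain C57BL/6J, for which no other allele and no treatment are named at either age. One age group was 10 weeks old (10W, young) and the other 90 weeks old (90W, aged), with 3 samples for each tissue and age and 24 arrays in all. The comparison of the ages was made in each organ. The samples of a group are called mice here, although it is not stated that they came from separate mice or whether 1 mouse gave more than 1 tissue, and p-values measure only the spread between these samples. The aged livers are numbered 1, 2 and 4.

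Antibodies are built from heavy chains and light chains, of which the kappa chain is the main light chain of the mouse. The variable part of each chain is joined from separate gene segments in every developing B cell, so a single B cell makes RNA from only a few of the many variable segments, while constant segments are shared by many cells. Resting B cells make less of this RNA than plasma cells, the antibody-secreting descendants of B cells, which make very large amounts. In bulk tissue, more cells of a type and more RNA per cell cannot be told apart.

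Levels are given as the log2 of the background-subtracted Cy3 signal minus the 75th percentile of the array, so that 0 is the level of the 75th percentile probe and a step of 1 is a doubling. A probe was counted as detected where the scanner software called it well above background, which held for 58.6% to 71.1% of all probes on an array. The 6 arrays of a tissue, young and aged, shared 1 slide that held no other tissue, so that tissue and slide cannot be told apart. Summed levels of 5 defining genes matched every tissue label: the sum of the lung genes, for instance, was 10.63 to 11.17 on the log2 scale in the lungs and at most 2.30 in the other tissues. The separation was not complete. The sum of the liver genes, 11.29 to 12.02 in the livers, was 8.45 to 8.70 in young and 6.97 to 7.87 in aged kidneys. In WAT that sum was 7.26 to 8.44 in the young and 4.75 to 8.62 in the aged mice. The liver gene Alb, which encodes serum albumin, read 6.68 in aged lung 1 against -1.45 in aged lung 3, and 4 of 5 adipose genes were called higher in the aged kidneys. Of the lung arrays, aged lung 1 had the fewest probes well above background, 59.5% against 66.1% to 70.0% on the others. Aged lung 2, singled out after the values were seen, is described after the first counts.

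The segment transcripts were low in young tissues and high in aged ones. The median level over the 146 probes was -5.46, -6.39 and -6.57 in the 3 young livers and -0.70, -2.51 and -2.89 in the aged livers 1, 2 and 4. In the kidney it was -6.41, -6.58 and -6.41 in the young mice and 1.16, 0.88 and 0.68 in the aged mice. In WAT it was -7.26, -6.41 and -5.30 in the young mice and 0.24, 0.69 and 1.49 in the aged mice. In these 3 tissues the medians of the ages did not overlap. The lung differed in that the medians were already higher in the young mice, at -3.83, -4.27 and -4.52, and the 3 aged lungs did not lie together, at 1.36, -3.32 and 1.71.

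**Figure D1:**
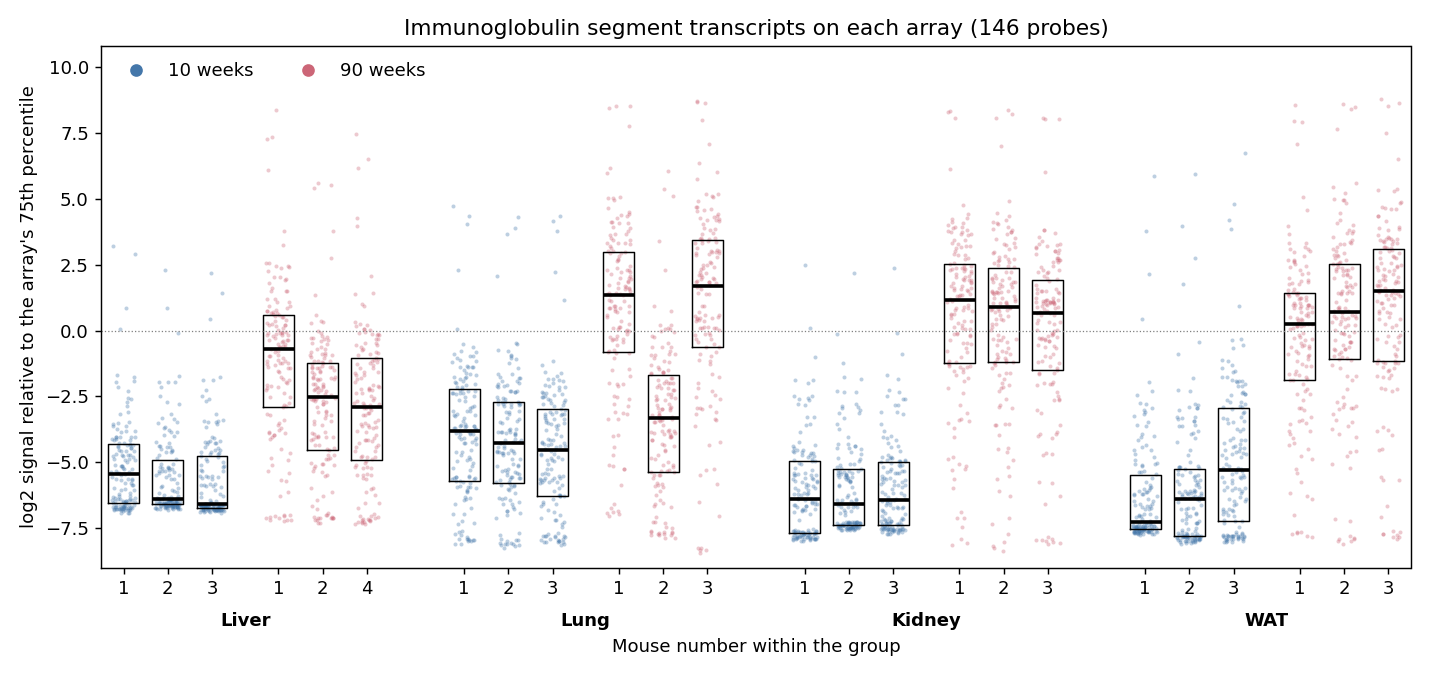
Level of each of the 146 probes on each of the 24 arrays (log2 signal relative to the 75th percentile of the array; dots, probes; boxes, quartiles; thick lines, medians), with 3 young and 3 aged mice in each tissue. The medians of the aged kidneys lie between 0.68 and 1.16 and those of the young kidneys between -6.58 and -6.41, while aged lung 2, at -3.32, lies near the young lungs.

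Averaged over mice, the median level was -6.14 ± 0.60 in young and -2.03 ± 1.17 in aged livers, and -4.20 ± 0.35 in young and -0.09 ± 2.81 in aged lungs (SD, n = 3 mice). It was -6.47 ± 0.10 in young and 0.90 ± 0.24 in aged kidneys, and -6.33 ± 0.98 in young and 0.81 ± 0.64 in aged WAT (SD, n = 3 mice). The spread between mice was smallest in the kidney and widest in the aged lungs. At the bright end, 50, 10 and 17 of the 146 probes exceeded the 75th percentile of the array in aged livers 1, 2 and 4, and 96, 12 and 100 did so in aged lungs 1, 2 and 3. The numbers were 94, 89 and 84 in the aged kidneys and 80, 89 and 98 in aged WAT. On the 12 young arrays they were 1 to 5.

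Detection followed the same order. Between 26 and 42 of the 146 probes were well above background in the young livers and between 107 and 126 in the aged livers. The numbers were 33 to 45 and 135 to 138 in the kidney, and 34 to 80 and 133 to 137 in WAT. In the lung they were 94 to 107 in the young mice and 133, 108 and 139 in aged lungs 1, 2 and 3. Across all arrays, 99 probes were detected on every one of the 12 aged arrays, whereas 17 were detected on every one of the 12 young arrays and 26 on none of them. In the kidney, 82 probes were detected in no young mouse and in all 3 aged mice, compared with 62 in the liver, 50 in WAT and 6 in the lung.

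The difference of the group means, aged minus young, was positive for all 146 probes in the lung, 141 in WAT, 139 in the kidney and 128 in the liver. Its median over the members, on the log2 scale, was 3.45, 3.93, 6.81 and 6.45 in the order liver, lung, kidney and WAT. With normexp background correction it was 1.52, 3.23, 4.47 and 4.57 in the same order. Over all probes that are not controls, the median without that correction was -0.36, 0.00, -0.34 and -0.04. The quartiles of the 146 differences were 5.12 and 8.23 in the kidney, 4.65 and 7.52 in WAT, 2.53 and 4.56 in the lung and 1.60 and 4.89 in the liver. Differences above 6 were found for 93 probes in the kidney, 83 in WAT, 9 in the liver and 8 in the lung. Of the 146 probes, 103, 31, 94 and 63 were detected in no young mouse of the liver, lung, kidney and WAT. A difference from an undetected level depends on the background, so these medians, quartiles and counts are not measured folds. Whether the size of the difference itself differs between tissues was not tested.

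Counted mouse by mouse, all 3 aged livers lay above all 3 young livers for 110 of the 146 probes, against a background of 11.3% of all probes. The number was 91 in the lung (background 10.2%), 135 in the kidney (background 17.5%) and 134 in WAT (background 10.2%). All 3 aged mice lay below all 3 young mice for 10, 0, 3 and 1 probes in the same order of tissues (liver, lung, kidney, WAT), against 40.6%, 17.8%, 48.3% and 12.2% of all probes. In the kidney these were ENSMUST00000103456, ENSMUST00000103470 and ENSMUST00000103556, which were not detected on any array, and in WAT it was ENSMUST00000103476. For 75 probes all aged mice lay above all young mice in each of the 4 tissues, and for 7 probes they did so in no tissue. Because the set was selected on this contrast, nothing is read from these counts beyond their description.

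In the limma fit over all detected probes, 105 of the 146 probes could be tested in the liver and 94 were called higher in the aged mice, at an adjusted p under 0.05, where 10.2% of all tested probes were called higher. In the kidney 133 of 134 tested probes were called higher (background 20.5%), all but ENSMUST00000103476, and in WAT 112 of 132 (background 1.97%). In the lung 11 of 118 were called higher (background 2.70%). None of the 146 probes was called lower in any tissue by limma, where 16%, 2.79%, 42.3% and 0.582% of all tested probes were called lower in the liver, lung, kidney and WAT. At an unadjusted p under 0.05, 1 of them was lower in the liver, ENSMUST00000103442, and 0 in each other tissue, and the methods' t-test called 0 lower in all 4 tissues. The probes that were not tested were those detected on fewer than 3 of the 6 arrays of the tissue, which left out 41, 28, 12 and 14 probes in the same order. A probe that passed this filter through the aged mice alone had to differ, so the counts over tested probes carry no weight of their own. By probe, 8 were called higher in all 4 tissues, 77 in 3, 36 in 2, 15 in 1 and 10 in none. The WAT count fell to 70 without young WAT 2 and to 73 without aged WAT 3.

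**Figure D2:**
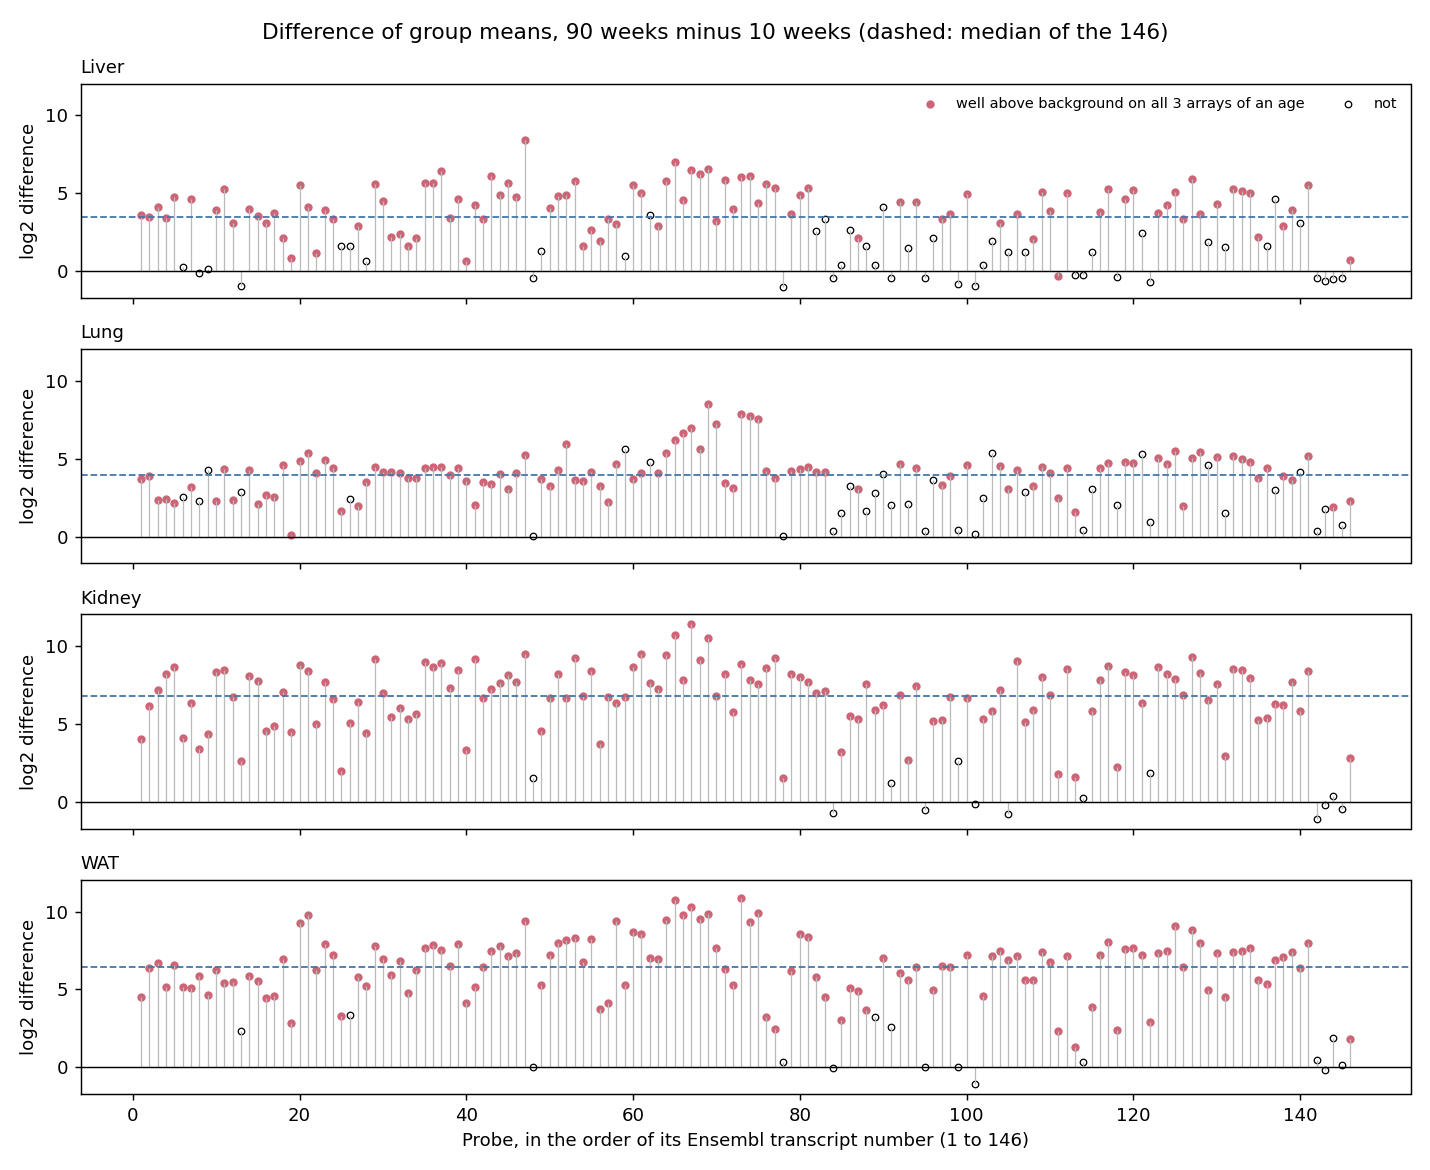
Difference of the group means (log2, 90 weeks minus 10 weeks, n = 3 mice in each group) for each of the 146 probes, ordered by Ensembl transcript number, in each tissue; filled dots are probes well above background on all 3 arrays of at least 1 age, and the dashed lines are the medians of the 146 probes (3.45, 3.93, 6.81 and 6.45). Nearly all filled dots lie above 0.

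The lung count rested on aged lung 2. In this library the median of the 146 probes, -3.32, lay just above the highest young lung, at -3.83, and 2 of the 146 probes exceeded the mean of the 3 aged lungs. Without aged lung 2, the median difference in the lung was 5.49, the ages did not overlap for 137 probes, and 112 probes were called higher in place of 11, where 3.55% of all tested probes were called. Leaving out any other lung gave 0 to 4 called probes: 0 without young lung 1, 0 without young lung 2, 2 without young lung 3, 3 without aged lung 1 and 4 without aged lung 3. The share of all tested probes called higher in these fits was 0.100%, 0.147%, 0.582%, 2.40% and 1.85%, in the same order. Most, though not all, of the listed B cell surface genes were also low in aged lung 2. Ms4a1, which encodes CD20, read -1.58 there against 2.47 and 2.11 in the other aged lungs and 1.36, 1.02 and 0.13 in the young lungs. In the same library Btk and Cd22, at 0.51 and -0.57, lay above every young lung, and Cd72, at -1.13, lay within the young range. The T cell receptor subunit gene Cd3e was not low there, at 3.25 against 2.46 and 2.76. The neutrophil granule gene Ngp read 6.02 in aged lung 2 against -0.12 and 0.47 in the others, and the part of these differences in the result was not tested. Of the other aged lungs, 1 had Alb at 6.68 and a segment median of 1.36, and the other had Alb at -1.45 and a segment median of 1.71. The part of liver RNA in these medians was not tested.

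The transcripts with the greatest mean difference over the 4 tissues, among 130 probes detected in all 3 mice of the brighter age in at least 2 tissues, were ENSMUST00000103403, ENSMUST00000103401 (probe A_52_P502849), ENSMUST00000103397, ENSMUST00000103418, ENSMUST00000103370 and ENSMUST00000103420. Their mean differences were 8.86, 8.80, 8.67, 8.42, 8.15 and 7.75 on the log2 scale. All 6 read -2.08 or less in every young mouse of every tissue, and they exceeded the 75th percentile of the array in most aged mice.

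In the kidney, ENSMUST00000103401 read -7.65, -7.32 and -5.81 in the young mice and 4.76, 4.92 and 3.80 in the aged mice on probe A_52_P502849. It had the greatest difference of any member in any tissue, 11.42 (SE 0.54). Since no young kidney was well above background, the fold can only be bounded, and it was at least 975-fold. ENSMUST00000103397 came next in the kidney, at -7.97, -7.55 and -6.13 in the young mice and 4.12, 4.45 and 2.01 in the aged mice, at least 499-fold. In WAT the same transcript read -7.71, -6.74 and -5.47 in the young mice and 3.67, 3.71 and 4.88 in the aged mice, a difference of 10.73 (SE 0.63).

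ENSMUST00000103418 gave the greatest difference in WAT, where it read -6.58, -5.25 and -6.57 in the young mice and 3.32, 4.45 and 6.49 in the aged mice. Unlike most members, it was also high in aged lung 2, at 2.29 against 6.15 and 7.08 in the other aged lungs and -2.38, -3.05 and -2.63 in the young lungs. ENSMUST00000103403 showed the greatest difference in the lung, 8.50 (SE 1.53), at -4.11, -5.13 and -5.25 in the young mice and 4.96, 0.05 and 6.03 in the aged mice. For both transcripts every aged lung, the deviating library included, lay above every young lung. ENSMUST00000103420 had a like pattern, and its WAT levels were -7.29, -8.01 and -6.79 in the young mice and 0.18, 1.64 and 4.18 in the aged mice, at least 198-fold. These 3 transcripts were among the 8 probes called higher in all 4 tissues.

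The liver was led by ENSMUST00000103370, which read -4.79, -6.71 and -6.85 in the young mice and 2.43, 0.59 and 3.97 in the aged mice. Its aged level was at least 118-fold the young one, and the aged liver numbered 4 was highest although the median of all members was lowest there. ENSMUST00000103397 came next in the liver, at -6.06, -6.76 and -6.87 in the young mice and 2.44, -1.15 and 0.01 in the aged mice, at least 31.7-fold.

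ENSMUST00000103410 and ENSMUST00000103426, each with 2 probes, were singled out after their values were seen, because they read far above the 75th percentile of the array in the aged mice of every tissue. ENSMUST00000103410 was detected in every mouse of both ages. On probe A_55_P2060897 it read 0.08, -0.11 and -0.11 in the young kidneys and 8.34, 8.23 and 8.01 in the aged kidneys, a difference of 8.24 (SE 0.11), or 302-fold. On probe A_55_P2727321 the young kidneys read 2.48, 2.18 and 2.36 and the aged kidneys 8.30, 8.07 and 8.04, a difference of 5.80 (SE 0.12), or 55.6-fold. On the former probe the lungs read 4.34, 3.88 and 3.76 in the young mice and 8.50, 5.09 and 8.69 in the aged mice, so that even aged lung 2 exceeded the young lungs. No spot on any array was saturated.

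ENSMUST00000103426 departed from the other members in young WAT. Its probe A_55_P2745508 read 5.85, 5.94 and 6.72 in the young WAT and 8.56, 8.59 and 8.79 in the aged WAT, a difference of only 2.48 (SE 0.27). In the kidney the same probe read -1.02, -1.24 and -0.89 in the young mice and 8.07, 8.38 and 8.08 in the aged mice, a difference of 9.23 (SE 0.14), or 599-fold. Its probe A_51_P485421 gave 3.23 in WAT and 8.59 in the kidney. These were the only members of the 90 detected in all 3 young mice of some tissue whose young WAT levels exceeded all young levels of the other tissues.

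At the low end of the same 130 probes, the 4 with the smallest mean difference were ENSMUST00000103496 (probe A_66_P100146), ENSMUST00000103509, ENSMUST00000103495 and ENSMUST00000103558, at 1.05, 1.58, 1.58 and 1.91. Outside the 130, ENSMUST00000103442 and ENSMUST00000103476, detected on 12 and 6 of the 24 arrays, had lower mean differences of 0.22 and -0.51. ENSMUST00000103495 was detected on all 24 arrays. It read -1.77, -2.47 and -2.61 in the young livers and -2.27, -2.77 and -2.68 in the aged livers, and the ages overlapped. In the kidney it read -1.89, -1.84 and -1.68 in the young mice and 0.35, -0.36 and 0.03 in the aged mice, and the ages did not overlap. ENSMUST00000103558 gave -3.59, -2.79 and -2.73 in young WAT and -0.97, -1.13 and -1.52 in aged WAT.

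The other low differences of single tissues were of the same kind. ENSMUST00000103363, detected on all arrays, read -1.67, -1.71 and -2.26 in the young livers and -0.16, -1.56 and -1.95 in the aged livers, a difference of 0.66, and the ages overlapped. ENSMUST00000103324 differed by 0.09 in the lung, where young lung 3, at 1.18, lay close to aged lung 3, at 1.40. The same transcript read -3.28, -3.14 and -3.17 in the young kidneys and 1.61, 1.21 and 1.01 in the aged kidneys. ENSMUST00000103442 differed by 1.53 in the kidney, was -1.02 in the liver, and was detected on 12 of the 24 arrays.

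Of the 146 probes, 5 were well above background on no array, namely ENSMUST00000103456, ENSMUST00000103470, ENSMUST00000103553, ENSMUST00000103554 and ENSMUST00000103556, and 2 on a single array each, ENSMUST00000103372 and ENSMUST00000103497. The detected probes with a negative difference were few: ENSMUST00000103442, ENSMUST00000103495, the probe A_66_P100146 of ENSMUST00000103496 and ENSMUST00000103509 in the liver, and ENSMUST00000103476 in the kidney and WAT. The other probes with a negative difference were not well above background in either age of that tissue. All of these were noted after their values were seen.

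**Figure D3:**
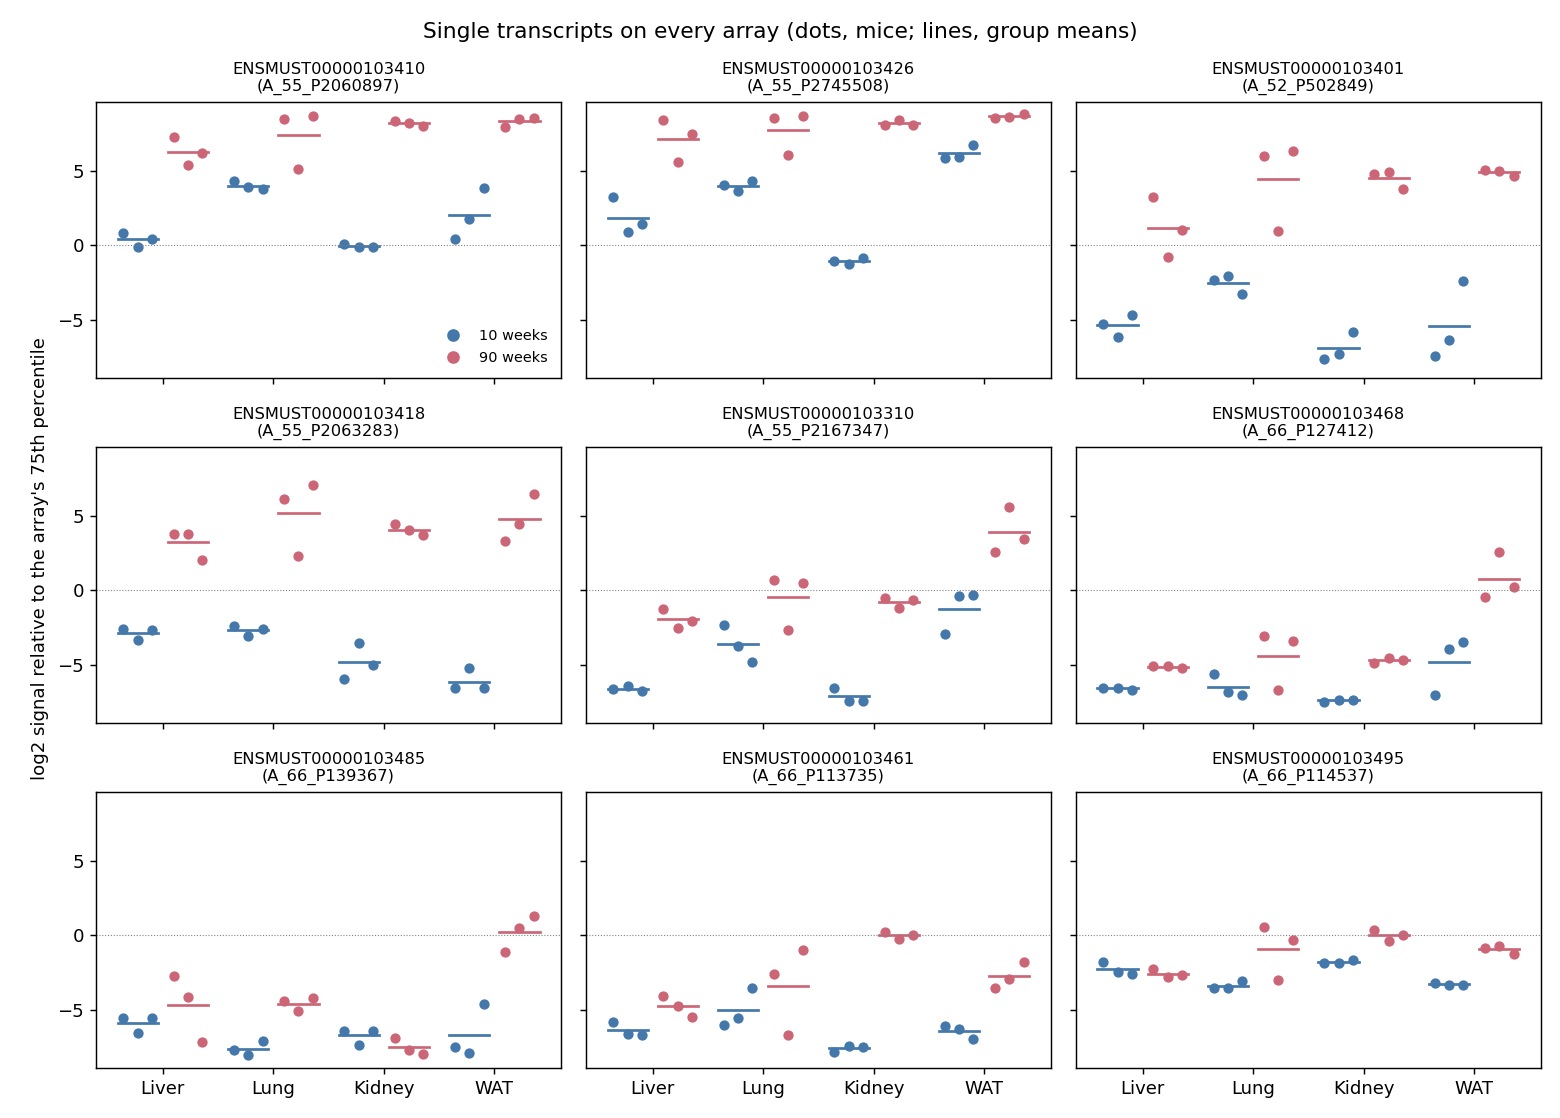
Levels of 9 probes on all 24 arrays (log2 signal relative to the 75th percentile of the array; dots, mice; lines, group means; blue, 10 weeks; red, 90 weeks). ENSMUST00000103426 is high in young WAT (5.85 to 6.72), ENSMUST00000103310, ENSMUST00000103468 and ENSMUST00000103485 are highest in aged WAT, ENSMUST00000103461 is highest in aged kidney, and ENSMUST00000103495 overlaps between ages in the liver.

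Within an age, the tissues could be ordered probe by probe, as a description, because tissue coincides with slide. Among the 90 probes detected in all 3 young mice of at least 1 tissue, the mean was highest in the lung for 75, and for 41 all young lungs exceeded all other young samples. The liver, kidney and WAT were each highest for 5. At 90 weeks, of 136 such probes, the mean was highest in the kidney for 70, in WAT for 60, in the lung for 6 and in the liver for 0, and it was lowest in the liver for 132. All aged kidneys exceeded all other aged samples for 4 probes, and all aged WAT samples did so for 3.

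These 7 members, chosen after their values were seen, were the following. In WAT they were ENSMUST00000103310, ENSMUST00000103468 and ENSMUST00000103485. ENSMUST00000103310 read 2.60, 5.60 and 3.47 in the aged WAT, and at most 0.72 in any other aged sample. It read -2.94, -0.42 and -0.32 in young WAT, which overlapped with the young lungs, at -2.35, -3.72 and -4.82. ENSMUST00000103468 read -0.45, 2.58 and 0.24 in the aged WAT and at most -3.10 in any other aged sample. For both transcripts aged WAT 2 was the highest aged sample.

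ENSMUST00000103485 read -1.15, 0.46 and 1.31 in the aged WAT. It was not detected in any aged kidney, where it read -6.88, -7.72 and -7.94, although 135 to 138 of the 146 members were detected there. Its difference in the kidney, -0.79, was 7.60 below the median of the members, whereas its difference in WAT, 6.89, was 0.44 above it.

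In the kidney they were ENSMUST00000103443, ENSMUST00000103459, ENSMUST00000103461 and ENSMUST00000103462. ENSMUST00000103461 read -7.82, -7.45 and -7.50 in the young kidneys and 0.20, -0.24 and 0.04 in the aged kidneys, at least 43.4-fold, and at most -0.96 in any other aged sample. ENSMUST00000103462, the next in number, read -1.92, -1.85 and -1.60 in the aged kidneys and at most -2.95 elsewhere at that age. The aged kidneys lay close together for both of these neighbours. ENSMUST00000103443 read 0.79, 0.26 and 0.89 and ENSMUST00000103459 read 3.01, 2.62 and 2.67 in the aged kidneys. ENSMUST00000103558 was the only member for which all aged lungs, aged lung 2 included, exceeded all other aged samples, at -0.33, 0.21 and 0.13.

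Single mice differed in the members that stood out. In aged liver 4, ENSMUST00000103544 read 0.94 against -2.18 and -4.86 in aged livers 1 and 2, a level 2.97 above its group mean, while the median member lay 0.63 below. In aged liver 1 the member furthest above its mean was ENSMUST00000103394, at -0.63 against -5.47 and -3.49. In aged liver 2 it was ENSMUST00000103336, by 0.99, at -3.92 against -3.84 and -6.98 in the others. In aged WAT 2, ENSMUST00000103390 read 0.15 against -2.93 and -3.80, and in aged WAT 3, ENSMUST00000103420 stood 2.18 above its mean.

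Among the aged lungs, ENSMUST00000103318 read -1.72 in aged lung 1 against -7.47 and -5.84, and it also led aged WAT 1, by 1.53. ENSMUST00000103316 led aged lung 3, at 3.41 against 0.92 and -3.90. In aged lung 2 the leading member, ENSMUST00000103558, stood only 0.21 above its mean. In the kidneys the leading members were ENSMUST00000103476 in aged kidney 1, by 1.31, ENSMUST00000103372 in aged kidney 2, by 2.03, and ENSMUST00000103390 in aged kidney 3, by 1.71. The first of these was at -4.04 and the second, detected on this array alone, at -3.98, both low levels. Members moved less from mouse to mouse in the kidney: the quartiles of the deviations from the group mean were 0.02 and 0.49 in aged kidney 1, compared with 0.66 and 1.57 in aged liver 1.

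Same-numbered samples of different tissues showed little likeness in the members that stood out. Over the 99 probes detected on every aged array, the correlation of the deviations from the group means had a median of 0.11 (range -0.38 to 0.38) for the 15 pairs of arrays with the same number, and of 0.01 (range -0.68 to 0.58) for the 39 pairs with different numbers. The highest value of all pairs was that of aged liver 2 with aged WAT 3, at 0.58. With 3 mice in a group the deviations of each probe sum to 0, so these values are not independent of each other.

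For 6 of the 7 transcripts with 2 probes, the tissue-centred levels of the pair correlated over the 24 arrays at 0.99, a value that includes their shared difference between ages. The exception was ENSMUST00000103496, with 0.76. Its probe A_51_P288295 differed between ages by 5.03, 4.40, 8.56 and 7.15 in the liver, lung, kidney and WAT, and its probe A_66_P100146 by -0.24, 1.56, 1.59 and 1.29. The size of the difference depended on the probe for other transcripts too. In the kidney it was 11.42 and 9.09 on the 2 probes of ENSMUST00000103401, 8.24 and 5.80 on those of ENSMUST00000103410, and 6.79 and 8.42 on those of ENSMUST00000103383. In the liver it was 5.92 and 3.66 on those of ENSMUST00000103526. Probes of variable segments can share sequence with related segments, and which segment a signal comes from was not tested.

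Along the whole number range most probes were higher in the aged mice, but their share in the kidney and liver varied with position. Divided into 5 equal stretches of the number range, from ENSMUST00000103301 onwards, the median difference in the kidney was 6.39, 7.68, 7.75, 5.55 and 6.71, and in the liver 3.38, 4.61, 4.64, 1.92 and 3.49. The lowest stretch in both tissues ran from ENSMUST00000103456 to ENSMUST00000103504, with 33 probes, of which 29 were higher in the aged kidneys and 25 in the aged livers. Of the 30 probes in the last stretch, 27 were higher in the aged kidneys and 24 in the aged livers. Most probes of these stretches that were not higher were undetected in that tissue. Those detected were ENSMUST00000103476 in the kidney, and ENSMUST00000103495, ENSMUST00000103496 (probe A_66_P100146) and ENSMUST00000103509 in the liver. In the earlier stretches all 36, 33 and 14 probes were higher in the aged kidneys, and 34, 32 and 13 in the aged livers. In WAT the medians were 5.88, 7.52, 6.25, 5.59 and 7.12. Just inside the lower bound, ENSMUST00000103301 differed by 3.60, 3.68, 4.03 and 4.54 and ENSMUST00000103302 by 3.45, 3.88, 6.15 and 6.36 in the liver, lung, kidney and WAT. Just inside the upper bound, ENSMUST00000103556 was not detected on any array, and ENSMUST00000103558 differed by 0.74, 2.27, 2.81 and 1.83.

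Just outside the lower bound lay ENSMUST00000103291 and ENSMUST00000103299, each with 2 probes. On probe A_51_P210310 the former differed by 1.71, 1.76, 3.28 and 3.10 in the liver, lung, kidney and WAT, and on probe A_51_P478172 the latter by 1.67, 1.67, 3.36 and 3.09. In aged lung 2 these probes read 4.21 and 3.72. Just outside the upper bound, ENSMUST00000103564 differed by 0.36, 3.02, 2.11 and 2.49 and ENSMUST00000103567 by -0.85, 0.07, -1.12 and -0.06. All 4 of these neighbours were highest among the aged lungs in aged lung 2, the library with the lowest median of the members.

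The members moved together across arrays. With each tissue centred on its own mean, the correlation of a member with the median of the members over the 24 arrays had a median of 0.97 and was at least 0.90 for 119 of the 146 probes. It was under 0.5 for 10 probes, 7 of which were detected on 0 or 1 array. The points share age, array scaling and slide, so the correlations largely restate the difference between ages.

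Among the genes with a symbol that are not members, the profile most like the median of the members over the 24 tissue-centred arrays was that of Jchain, which encodes the chain that joins IgA and IgM into polymers, with a correlation of 0.98. Next came Pou2af1, a B cell coactivator of immunoglobulin transcription, with 0.97, Slamf6 with 0.97, Oosp1 with 0.97, Cacna1s with 0.97, the lymphocyte adaptor Lax1 with 0.96, the cytokine gene Ltb with 0.96 and Nfkbid with 0.96. Jchain read -2.03, -2.27 and -2.09 in the young kidneys and 6.27, 5.69 and 5.51 in the aged kidneys, a difference of 7.95 (SE 0.20, limma adjusted p = 1.1e-05). In the lung it followed the members library by library, at 0.95, 0.41 and 0.52 in the young mice and 5.68, 1.39 and 6.04 in the aged mice. Its difference there was 3.74 (SE 1.22, limma adjusted p = 0.12), and 5.23 without aged lung 2 (SE 0.21, limma adjusted p = 0.0020).

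Levels were also compared between mice of the same group, a quantity that the choice of members did not use. With each tissue and age centred on its own mean, the median of the members correlated over 24 arrays with Jchain at 0.90, with Mzb1, a chaperone of antibody assembly, at 0.93, with Pou2af1 at 0.93, with Cd79a at 0.86 and with Ms4a1 at 0.76. Without the 3 aged lungs the values were 0.75, 0.75, 0.78, 0.61 and 0.61 over 21 arrays. Xbp1, which read 5.06 or more on every array of both ages, gave 0.38 with and 0.35 without the aged lungs, and Ltb gave 0.70 and 0.86. The T cell gene Cd3e gave -0.34 with and 0.60 without them, the latter close to the values of Cd79a and Ms4a1, so that a positive value was not particular to genes of the B lineage. These are descriptions of arrays that share slides and scaling.

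**Figure D4:**
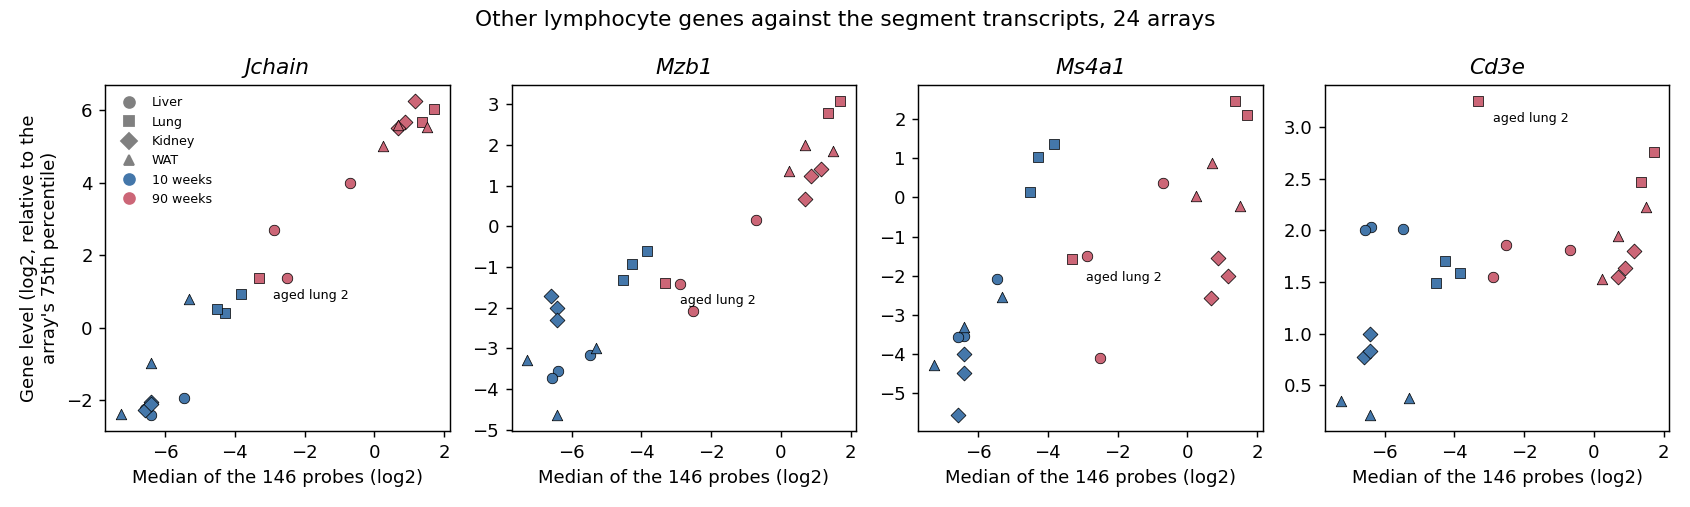
Level of 4 genes against the median of the 146 probes on each of the 24 arrays (both axes log2, relative to the 75th percentile of the array; shape, tissue; blue, 10 weeks; red, 90 weeks). Jchain and Mzb1 rise with the segment transcripts, and aged lung 2 lies at -3.32 on the horizontal axis with a Jchain level of 1.39 and a Cd3e level of 3.25.

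Other genes of the B lineage were counted in lists. These lists were drawn up with earlier results of these data known. For comparison, limma called 10.2%, 2.70%, 20.5% and 1.97% of all tested probes higher in the liver, lung, kidney and WAT, and 16%, 2.79%, 42.3% and 0.582% lower. Of 16 genes of plasma cells and antibody secretion, limma called 11 higher and 2 lower (Edem1 and Sec11c) in the aged kidneys, 6 higher and 1 lower (Tnfrsf13b) in the liver, 4 higher in WAT and 0 in the lung. With spike-in scaling 0 were called lower in the kidney or in the liver. Jchain, Mzb1 and Pou2af1 rose in the liver, kidney and WAT. Mzb1 read -3.29, -4.65 and -2.98 in young WAT and 1.35, 2.01 and 1.85 in aged WAT, a difference of 5.38 (SE 0.46, limma adjusted p = 0.0068). Xbp1, the transcription factor of the secretory program, was not called in any tissue and differed by -0.32, -0.14, -0.03 and 0.21 in the liver, lung, kidney and WAT. The median difference of the list was 0.04, 0.29, 0.93 and 1.25 in the same order of tissues. In the lung 2 genes were higher and 1 lower at an unadjusted p under 0.05, and without aged lung 2 limma called 6 higher.

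Of 17 genes of the B cell surface and receptor signalling, 12 were called higher in the aged kidneys, 8 in WAT, 5 in the liver and 1 in the lung, and 2 were called lower in the kidney, Cr2 and Pax5, of which spike-in scaling left 0. In the liver the called genes were Cd79b, Cd72, Blnk, Btk and Bank1. The list's median differences were 1.32, 0.19, 2.65 and 2.30 in the liver, lung, kidney and WAT. Ms4a1 read -4.28, -3.30 and -2.55 in young WAT and 0.03, 0.89 and -0.23 in aged WAT, a difference of 3.61 (SE 0.51, limma adjusted p = 0.028). Cd79a, a signalling chain of the B cell receptor, rose by 1.07 in the kidney and 2.70 in WAT on the log2 scale. In the liver and lung neither of these genes was called, with differences of 1.32 and 0.16 for Ms4a1 and of 0.21 and 0.03 for Cd79a. The single gene called in the lung was Btk, a kinase of the receptor pathway that is also made in myeloid cells, and with spike-in scaling 0 were called. Without aged lung 2, 7 of the 17 genes were called higher there, and the list's median difference was 1.41 in place of 0.19.

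**Figure D5:**
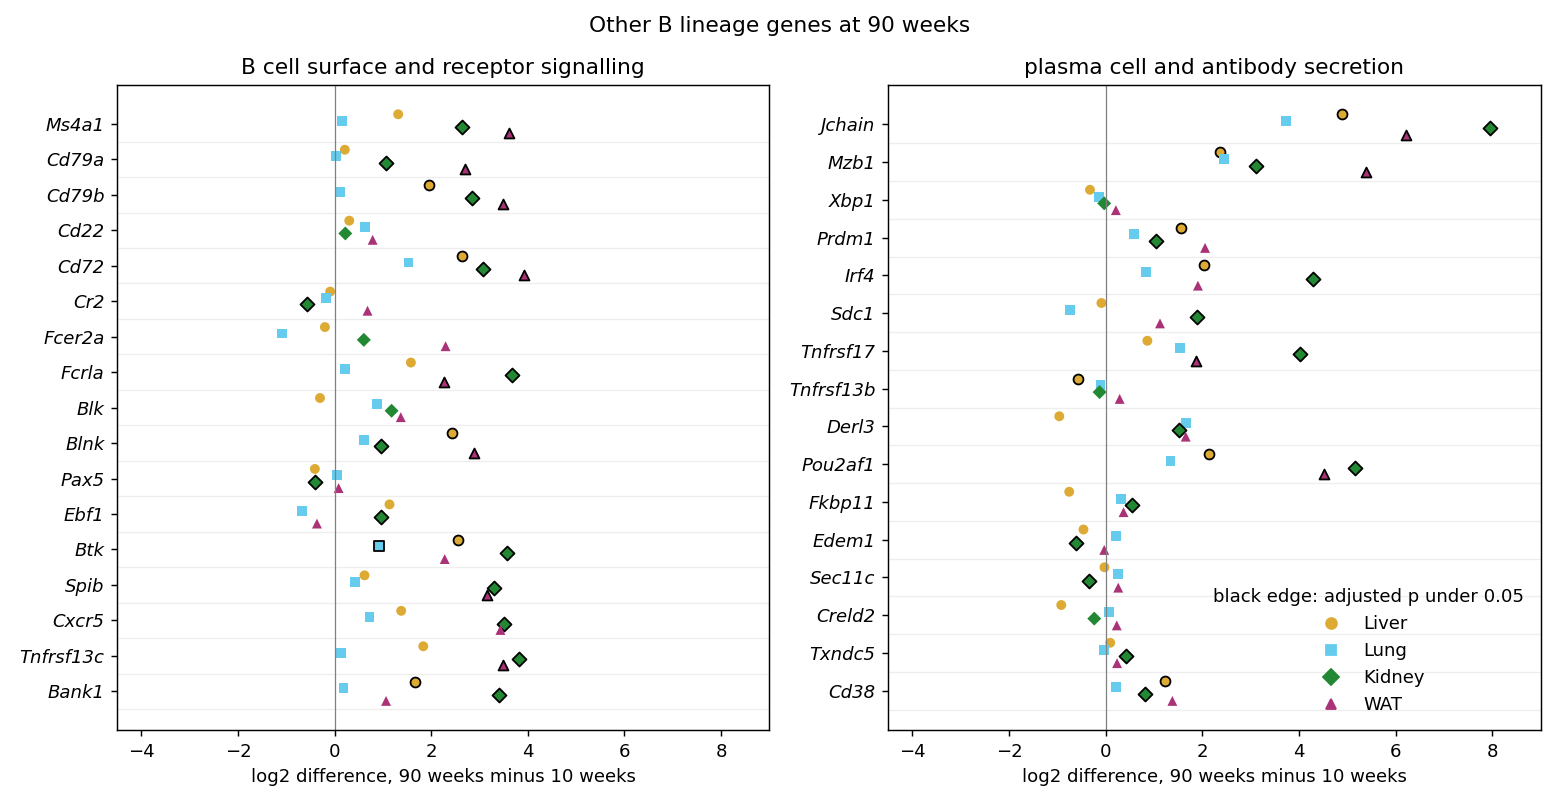
Difference between ages (log2, 90 weeks minus 10 weeks, n = 3 mice in each group) for 17 genes of the B cell surface and 16 genes of plasma cells in the 4 tissues; a black edge marks a limma adjusted p under 0.05. Jchain shows the widest shifts, from 3.74 in the lung to 7.95 in the kidney, and Xbp1 lies near 0 in all 4 tissues. The lung points of the B cell surface genes, aged lung 2 included, run from -1.09 (Fcer2a) to 1.53 (Cd72).

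The recombination genes gave no common pattern. Of 12 genes of segment joining and the pre-B cell receptor, 9 could be tested in each tissue and 0 were called in the liver, where 1 was lower at an unadjusted p under 0.05. Dclre1c, a nuclease of end processing, was called higher in the lung and kidney, and Vpreb3, of the pre-B cell receptor, in the kidney and WAT. The lung call was lost with spike-in scaling and without aged lung 2. In the kidney 7 were called lower, in a tissue with 42.3% of all probes called lower, but with the arrays scaled to the spike-in controls that number was 1. The genes Rag1 and Rag2, which encode the recombinase, were not tested in any tissue because they were not detected on enough arrays. Of 7 genes of class switching and hypermutation, 1 was called higher in the liver and 1 in the kidney, Exo1 in both, and Ung and Msh6 were called lower in the kidney, where 1 of the list was called lower with spike-in scaling and 0 with quantile normalization. None was called in the lung or WAT, where 1 in each was higher at an unadjusted p under 0.05.

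Genes for antibody handling and for the attraction of B cells were also measured. Of 11 genes of antibody transport and Fc receptors, 7 were called higher in the kidney, 5 in the liver, 3 in WAT (Fcgr1, Fcgr4 and Fcer1a) and 2 in the lung (Fcgr4 and Fcer1g), and Fcgrt, Fcamr and Fcer1a were called lower in the kidney, where spike-in scaling left 1 of the list called lower. Fcgr4, a receptor for IgG on myeloid cells, was the only gene of this list called higher in all 4 tissues. Pigr, which carries polymeric antibody across epithelia, was not called in any tissue and differed by -0.30 to 0.21. Of 14 genes of B cell attraction and survival on the array, 6, 1, 11 and 2 were called higher in the liver, lung, kidney and WAT, among them Cxcr4 in the lung and Cxcl13 and Ltb in WAT. Ccr9 was called lower in the liver, though not with quantile normalization or spike-in scaling, and Ccl28 in the lung, though not with quantile normalization. Cxcl13, the chemokine that draws B cells into follicles, read -7.70, -7.33 and -7.30 in the young kidneys and 3.41, 1.07 and 0.69 in the aged kidneys, at least 143-fold higher (limma adjusted p = 0.00019). It was -0.86, -0.78 and -0.67 in the young lungs and 0.85, -2.40 and 4.64 in the aged lungs, where it was lowest in aged lung 2.

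Markers of other cells moved with age as well. T cell genes were called higher for 7 of 8 genes in the lung and in the kidney and for 5 in the liver and in WAT, with Cd4 called lower in the kidney though not with quantile or spike-in scaling, and macrophage genes for 5 of 6 in the liver, 4 in the kidney and 2 in WAT. No macrophage gene was called in the lung by limma, where 1 was higher at an unadjusted p under 0.05. Neutrophil genes were called higher for 4 of 6 genes in the kidney, 1 in the liver and 1 in the lung (Ngp in both) and 0 in WAT, where 0 passed at an unadjusted p under 0.05. Of 8 genes of lymph node and follicle stroma, 0 were called in WAT by limma and 4 were higher there at an unadjusted p under 0.05. Their summed level in WAT was 5.35 to 6.29 in the young and 5.12 to 6.11 in the aged mice. Such a sum follows its brightest genes, and Cr2 read at most -2.22 there on any array. Glycam1 and Madcam1, which mark lymph node vessels, differed there by 0.13 and 0.69, and Cr2, of follicles, by 0.68. In the kidney Ccl19 and Ccl21a of this list were called higher and Glycam1, Cr2 and Enpp2 lower, and in the liver Ccl19 was called higher. With spike-in scaling 3 were called higher and 1 lower in the kidney, and 0 in the liver. In the aged lungs all 3 red blood cell genes on the array were higher at an unadjusted p under 0.05, with a median difference of 3.43, and Alas2 was called, though not without aged lung 2. The adipose genes had a median difference of -2.40 there, with Plin1 and Cidec called lower, of which 1 was called without aged lung 2. The part of these cells in the segment levels was not tested. The adipose gene Adipoq read -2.98, -7.40 and -7.45 in the young kidneys and -3.35, -1.28 and -0.53 in the aged kidneys. The segment medians of these aged kidneys were 1.16, 0.88 and 0.68, and the part of adipose RNA in them was not tested.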

How the data were processed

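Total RNA was labelled with Cy3 and hybridised to one-colour Agilent mouse arrays. Per the file headers and the submitters' processing notes, the authors extracted the spot values with Feature Extraction 11.0.1.1, and the array design names targets on the mouse build mm9. The deposited values used here are background-subtracted processed signal intensities on a linear scale, with no scaling between arrays. From these, spots marked as non-uniform or outliers (1841 over all arrays) were left out, values were taken to log2 relative to the 75th percentile of their own array, and spots of a probe were averaged. Each tissue was fitted alone with limma 3.58.1 in R 4.3.3 over the probes that 3 or more of its 6 arrays measured well above background, with Benjamini-Hochberg adjustment over all of them and a threshold of 0.05. Summaries were made in Python 3.11.15. The number of arrays, 3 in a group, limits the precision.

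Where no array of an age was well above background, the fold was bounded by the lowest signal well above background on each array. Members, lists and tests were chosen with earlier results of these data known. Members were named for the 6 highest and 4 lowest mean differences over the tissues, the 2 highest and 2 lowest in each tissue, the furthest above its mean on each aged array, and the 2 transcripts on each side of each bound, and others named were chosen after their values were seen. Symbols of other genes came from matching accessions to RefSeq of GRCm38.p6, which gave 32989 probes a symbol and none of the members. Segment names were not used here, and some genes of the lists are not reported here. For genes with several probes the brightest was used. On simulated data for each tissue, the fit recovered 41%, 64.5%, 65% and 20.5% of 200 changed probes in the liver, lung, kidney and WAT, with 4, 7, 8 and 2 false calls. Samples with the same number in the 2 ages deviated with correlations of -0.17 to 0.16, so the numbers were not taken to pair them. The alternatives were normexp background correction, quantile normalization, median centring, scaling to the spike-in controls, other filters on dim probes, 1 fit over all arrays, the replicate number as a block, the methods' t-test and leaving out each sample.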

Additional observations from a re-analysis of the deposited data

How the results depend on the processing

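The numbers of members called higher at 90 weeks (94, 11, 133 and 112 in the order liver, lung, kidney and WAT) depended on the filter, the test and single libraries. A filter asking for detection on all 6 arrays left 24, 26 and 31 members to test in the liver, kidney and WAT, of which 20, 26 and 28 were called. The methods' t-test with Benjamini-Hochberg adjustment called 129 in the kidney, 40 in the liver, 1 in WAT and 0 in the lung. In the lung, no filter gave 3 and 1 fit over all 24 arrays gave 82. With the replicate number as a block, 83, 1, 133 and 103 members were called in the liver, lung, kidney and WAT, and in no tissue was a member called lower. Leaving out 1 sample gave 73 to 96 called higher in the liver, 70 to 109 in WAT and 0 to 112 in the lung. Members called lower, 0 as reported, became 1 in the liver with normexp background correction, 7 with no filter and 1 with the single fit over all arrays, 0 to 1 when 1 sample was left out in the liver or the kidney, and 3 in the kidney with no filter. Normexp background correction lowered the median difference over the 146 members to 1.52 in the liver, 4.47 in the kidney and 4.57 in WAT, and spike-in scaling raised it to 7.22 in the kidney. The cause was not tested. The medians kept their sign under every alternative run. Scaling moved the median of all probes in the liver from -0.36 to -0.04 with quantile normalization, and in the kidney from -0.34 to -0.11 with quantile normalization and to 0.06 with spike-in scaling. In the kidney spike-in scaling turned 8198 probes called higher and 16927 lower over the whole array into 11861 and 5135, and in the liver 3597 and 5664 into 3034 and 1296. Of the B cell surface and plasma cell genes together, the 1 called higher in the lung became 0 with spike-in scaling and 13 without aged lung 2, alternatives that were chosen after seeing the data.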

Other observations

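Young WAT 3 differed from the other young WAT samples in the segment transcripts. Of the 146 probes, 80 were well above background there against 34 and 45 in young WAT 1 and 2, and 98 lay above the mean of the 3 samples. The greatest deviation of a member in any sample was 5.84 above the group mean in this one. The members that stood out differed between young samples: over the 17 probes detected on every young array, deviations of samples from different tissues had a median correlation of 0.00 for the same number (18 pairs) and 0.02 for different numbers (36 pairs).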
